A study of Mus musculus with 8 samples.

Results

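The genes described here are the Nduf genes, the mouse genes whose symbols begin with Nduf. They number 46 of 21980 protein-coding genes in a table of 55573 genes. Of these 36 encode subunits of respiratory complex I and 8 encode assembly factors (Ndufaf1 to Ndufaf8). The remaining 2, Ndufa4 and Ndufa4l2, carry the name without being complex I subunits today. Members were taken by symbol and annotated type, so pseudogenes and names ending in -ps were left out. The latter include Ndufb1-ps, which GENCODE types as a noncoding RNA, and no Ndufb1 gene is among the members. All 46 genes passed the filter on low counts that kept 17411 genes for testing. The samples were hearts of 24-week-old male mice on the C57BLKS/J strain, in 4 libraries from db/m mice and 4 from db/db mice, each from a total RNA input of 3 µg. The db allele lies in the leptin receptor gene, db/db mice carry it on both chromosomes and are obese and diabetic, and db/m mice carry one copy and serve as the lean control. The labels do not say whether each library is a separate animal, so p-values measure the spread between these libraries, which may be technical in part.

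Complex I takes electrons from NADH, passes them along iron-sulfur clusters to ubiquinone and pumps protons across the inner mitochondrial membrane. Its N module binds and oxidises NADH, its Q module reduces ubiquinone, and its membrane arm moves the protons. The core subunits that carry the chemistry are shared with bacteria, and the accessory subunits surround them. Assembly factors help to build the complex from its modules and are absent from the finished enzyme. The heart makes most of its ATP by respiration, and complex I is the main entry of electrons into it.

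Library totals ranged from 19541757 to 22249911 counts, and values are given as CPM, gene counts relative to the library size after scaling by edgeR's TMM factors. The 46 genes took 0.167% of counts in db/m replicate 3, while their share elsewhere was 0.354% to 0.435%. Db/m replicates 1 and 3 stood apart by markers of other tissue. All 6 of 6 atrial markers were higher in both than in any of the other 6 libraries, with a summed level of 1632 and 3887 CPM against 16.005 to 118 CPM. So were 8 of 9 adipocyte markers, whose summed level was 623 and 1348 CPM against 275 to 423 CPM. All 4 smooth muscle markers were also higher in both, at a summed 245 and 708 CPM against 84.8 to 197 CPM. Of the fibroblast markers 3 of 5 were highest in both, and their sum was 1763 and 1636 CPM against 902 to 1273 CPM. Sln and Ucp1, defining genes of atrial muscle and brown fat, were at 0 counts in all 4 db/db libraries. They were also absent or low in db/m replicates 2 and 4, with Sln at 0 and 3.94 CPM and Ucp1 at 0.098 and 0 CPM. Ventricular markers were present in all libraries at a summed 32758 to 41631 CPM. Of these 10 genes, 7 were lowest and 3 highest in db/m replicate 3. Myl2, the ventricular myosin light chain, was at 117 CPM in db/m replicate 3 against 593 to 999 CPM elsewhere, while Myh6, the main adult myosin heavy chain, was at 20479 CPM against 13792 to 17324 CPM. Log2 fold changes of the members' own counts are therefore given with all libraries and without db/m replicate 3, and medians of the classes and modules also without db/m replicates 1 and 3. The part of these markers in the differences was not tested. In bulk tissue fewer cells of a type and less RNA per cell cannot be told apart.

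Many Nduf subunits have pseudogenes that resemble their coding sequence, and these took more counts than the genes. Counts on the 46 genes summed to 615970 over the 8 libraries, and counts on 74 pseudogenes of at least 80% identity summed to 712816. Copies were found for 27 members, and for 16 members the copies held more counts than the gene. Those 16 were 15 subunits and Ndufa4, and 0 of the 8 assembly factors. For Ndufs3, a Q module core subunit, the deposited table gave 1720 counts for Ndufs3 and 59779 for Gm12251. It gave 1077 counts for Ndufs6 and 29941 for Ndufs6b, 640 counts for Ndufa11 and 49626 for Ndufa11b, 501 counts for Ndufs5 and 35245 for BC002163 and 902 counts for Ndufb4 and 19686 for Ndufb4c. How reads that match a gene and its copy were shared out is not given in the sources used here, so levels of these 16 genes are uncertain. Other members with counted copies share this limit, such as Ndufa5 with 8086 counts on the gene and 6486 on its copies. GENCODE types Ndufb4c as a pseudogene, whereas RefSeq lists it as protein-coding.

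**Figure D1:**
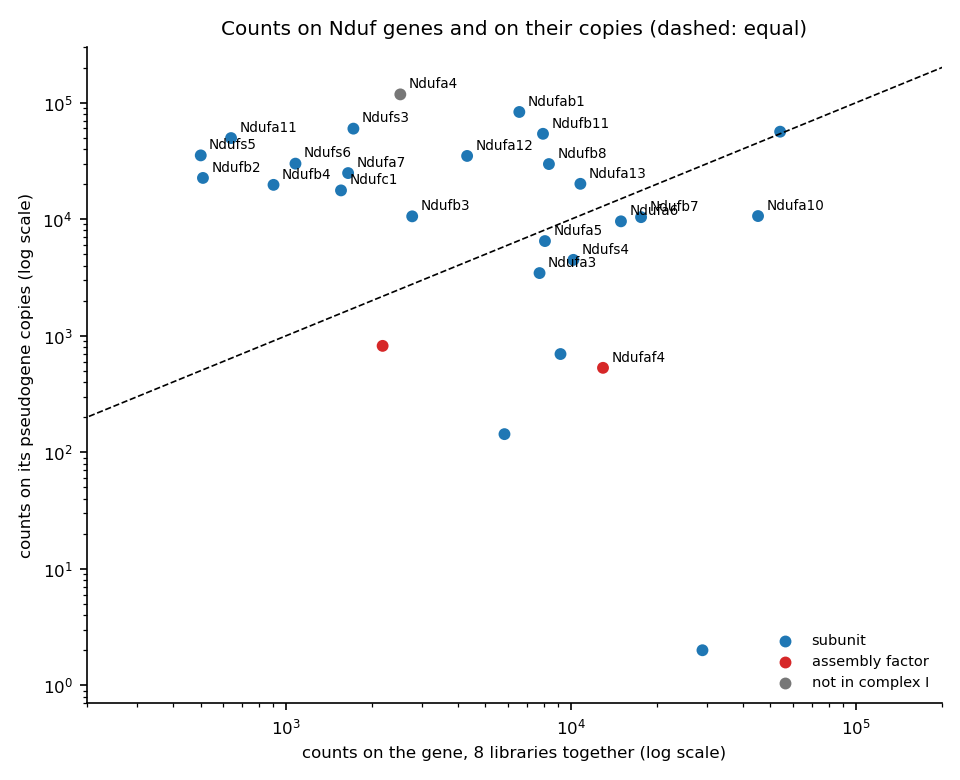
Counts on each Nduf gene with a counted pseudogene copy (x axis, log scale, 8 libraries together) against counts on its copies (y axis, log scale), with the dashed line at equal counts. The 16 genes above the line include Ndufa11, with 640 counts on the gene, and both assembly factors shown lie below it.

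The sequences below show how alike some genes and their abundant copies are. The first 120 coding bases of Ndufb4, Ndufs6 and Ndufs3 are printed above the same stretch of their copy, from GENCODE M21 transcripts on GRCm38, with the differing bases in capitals.
Ndufb4: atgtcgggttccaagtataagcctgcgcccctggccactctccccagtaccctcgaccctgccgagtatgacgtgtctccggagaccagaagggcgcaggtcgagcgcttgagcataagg
Ndufb4c: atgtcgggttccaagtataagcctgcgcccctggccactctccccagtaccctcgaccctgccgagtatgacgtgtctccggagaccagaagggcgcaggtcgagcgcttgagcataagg
Ndufs6: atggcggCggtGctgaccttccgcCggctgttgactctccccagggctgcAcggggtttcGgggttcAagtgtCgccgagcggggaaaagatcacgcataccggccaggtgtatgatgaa
Ndufs6b: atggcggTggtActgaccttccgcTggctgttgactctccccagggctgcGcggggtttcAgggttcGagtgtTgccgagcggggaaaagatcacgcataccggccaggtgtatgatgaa
Ndufs3: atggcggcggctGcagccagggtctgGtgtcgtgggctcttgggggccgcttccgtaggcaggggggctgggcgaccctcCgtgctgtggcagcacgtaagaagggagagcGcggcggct
Gm12251: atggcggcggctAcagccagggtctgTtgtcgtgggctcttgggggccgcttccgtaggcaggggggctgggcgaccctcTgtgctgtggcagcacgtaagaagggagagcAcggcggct
Ndufb4 (minus strand, chr16:37647170-37654453) and Ndufb4c do not differ in this window, and over all 387 coding bases they differ at 0. Ndufs6 (minus strand, chr13:73319838-73328542) and Ndufs6b differ at 7 of the 120 bases, and Ndufs3 (minus strand, chr2:90894634-90904827) and Gm12251 at 4. Over the 789 coding bases of Ndufs3 the copy differed at 11, and the longest identical run was 179 bases.

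The first question is how complex I genes compare between db/db and db/m hearts, and whether subunits and assembly factors move alike. All 36 subunits had a higher mean in db/db, with a median log2 fold change (db/db over db/m) of 0.43, and 7 of 8 assembly factors did, with a median of 0.22. Over all 17411 genes the median was -0.019, and 47.7% of genes had a positive value. No member passed an adjusted p of 0.05 by edgeR's quasi-likelihood test with Benjamini-Hochberg adjustment, and 1 gene of all those tested did (0.00574%). At an unadjusted p under 0.05 the same test took 1 member, the assembly factor Ndufaf4, which was lower in db/db, against 13.0% of all genes, while 1 of 46 is 2.17%. The libraries of the 2 groups did not overlap for 7 members that were higher in db/db (15.2%), against 5.04% of all genes, and for 1 that was lower, against 4.61%. The 7 were Ndufa10, Ndufv1, Ndufa6, Ndufs7, Ndufv3, Ndufa7 and Ndufa3, all subunits, and the 1 was Ndufaf4.

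The subunit values depended on db/m replicate 3. The mean log2 CPM of the 36 subunits was 5.48, 5.75, 3.96 and 5.62 in db/m replicates 1 to 4 and 5.75, 5.93, 5.83 and 5.69 in db/db replicates 1 to 4. Replicate 3 of db/m lay far below the other 7 libraries, and db/m replicates 2 and 4 lay near or within the db/db range. Without db/m replicate 3 the subunit median was 0.18, with 34 of 36 positive against 49.4% of all genes. In that fit 6 subunits had an unadjusted p under 0.05, all higher in db/db, against 6.84% of all genes higher, and the groups did not overlap for 5 (10.9% of members), against 6.73%. Ndufa10 and Ndufa6, with narrow margins before, overlapped once the scaling factors were estimated without that library. Without db/m replicates 1 and 3 the subunit median was 0.091, with 31 of 36 positive against 50.4% of all genes. The mean log2 CPM of the 8 assembly factors was 3.93, 4.06, 2.73 and 3.93 in db/m replicates 1 to 4 and 3.92, 3.99, 3.86 and 3.86 in db/db replicates 1 to 4. Here too replicate 3 of db/m was the lowest, and the other 3 db/m libraries lay within or above the db/db range. Without db/m replicate 3 the assembly factor median turned to -0.0094, with 3 positive and 5 negative, and without replicates 1 and 3 it was -0.026.

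**Figure D2:**
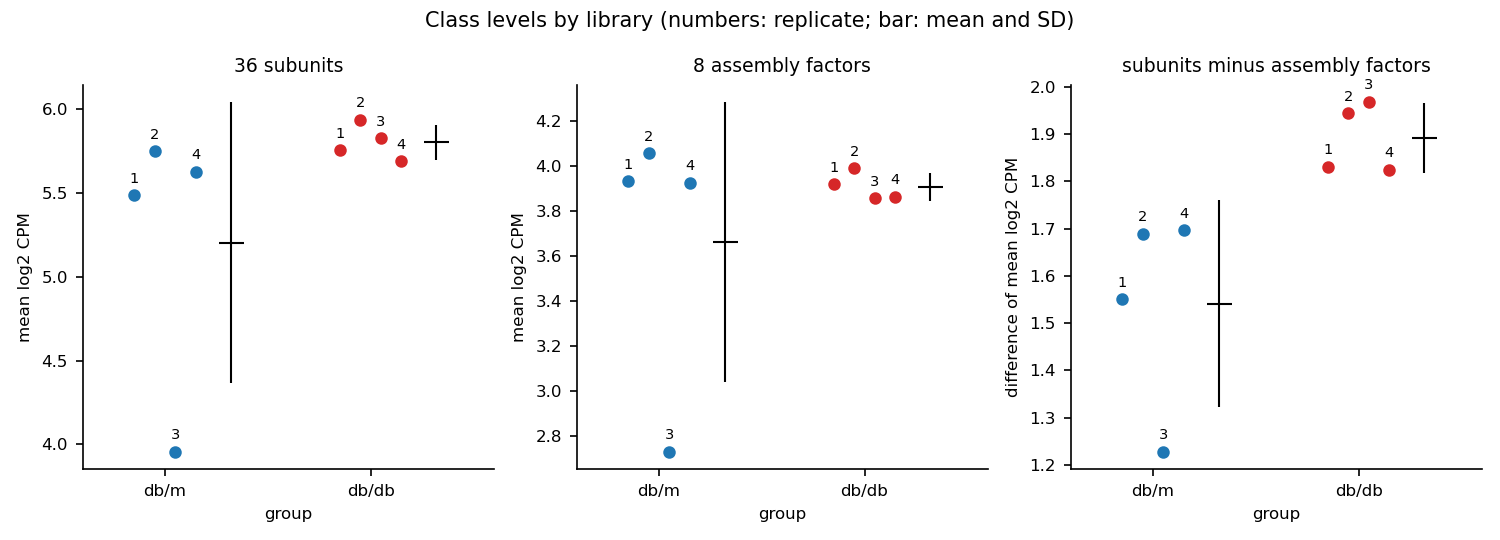
Mean log2 CPM per library of the 36 subunits (left) and the 8 assembly factors (middle), and their difference (right), by group, with numbers for the replicates and a black bar for the mean and SD over 4 libraries. Db/m replicate 3 is lowest in all 3 panels, and only the difference separates the groups, with db/m at most 1.70 and db/db at least 1.82.

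Subunits stood higher relative to assembly factors in db/db. The difference of their mean log2 CPM, in which the scaling of a library cancels, was 1.55, 1.69, 1.23 and 1.70 in db/m replicates 1 to 4 and 1.83, 1.94, 1.97 and 1.82 in db/db replicates 1 to 4. Every db/db library was above every db/m library, replicate 3 included. Db/m libraries averaged 1.54 ± 0.22, db/db libraries 1.89 ± 0.074 (SD, n = 4), and the value was 1.65 ± 0.082 in db/m without replicate 3 (SD, n = 3). With Ndufaf4 left out the difference was 1.71 to 2.07 in db/m and 2.11 to 2.27 in db/db, a narrower gap without overlap. With only the 21 subunits whose copies did not hold more counts it was 2.33 to 2.85 against 3.01 to 3.09. Against 10 assembly factors without the Nduf name it was -0.28 to 0.67 against 0.74 to 0.96, again without overlap. Against the subunits of complexes III to V, the later steps of the same chain, it was -0.32 to -0.029 against -0.31 to -0.26, and the groups overlapped. Against mitochondrial ribosomal proteins the groups did not overlap. The mean log2 CPM of complexes III to V, and that of complex II, taken against the Ndufaf genes also separated the groups. The gap to assembly factors is therefore not particular to complex I subunits. These differences of class means carry no test here, since members were chosen with earlier results known.

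**Figure D3:**
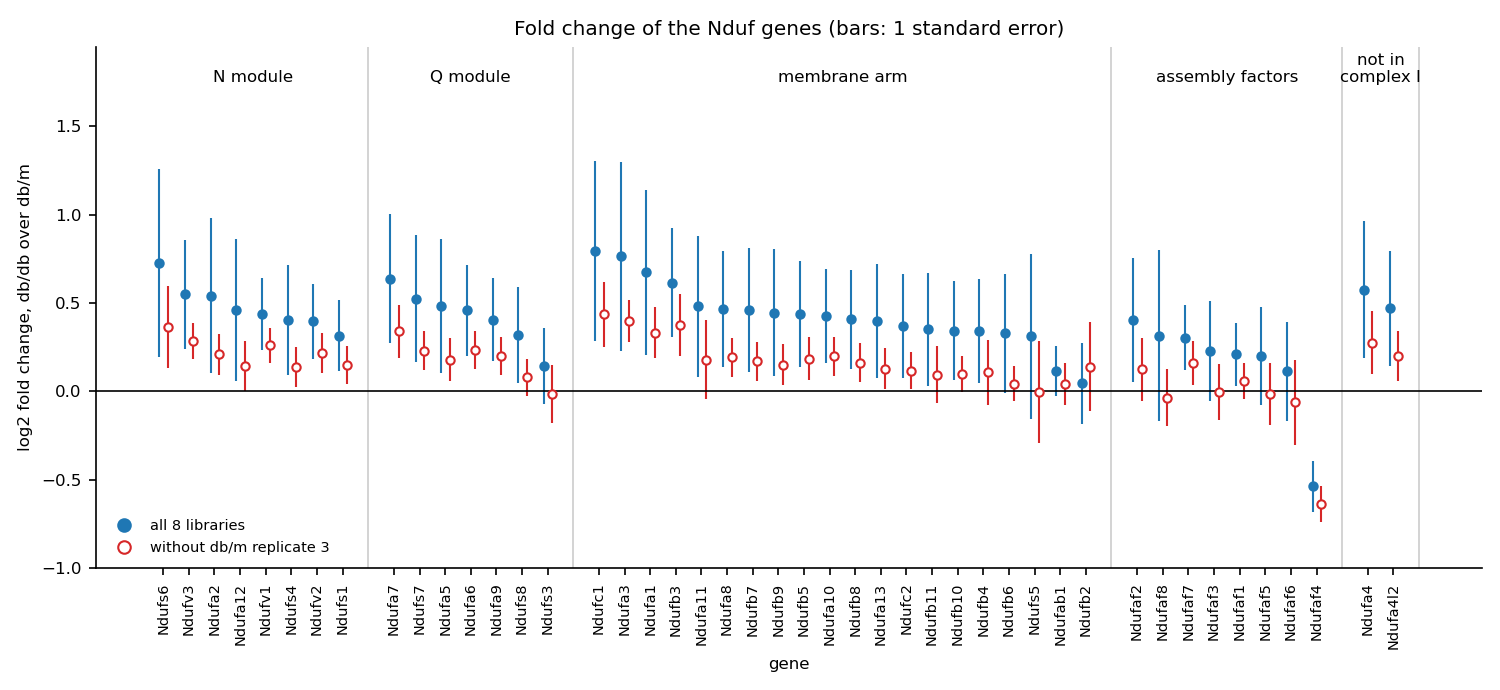
Log2 fold change of db/db over db/m (y axis) for the Nduf genes (x axis, 1 gene not shown), by module or class, from all 8 libraries (blue, filled) and without db/m replicate 3 (red, open), with bars of 1 standard error. The filled points of all subunits shown lie above 0, the open points of subunits other than Ndufb2 lie closer to 0, and Ndufaf4 alone lies clearly below 0 in both.

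In the N module, where NADH is oxidised, all 8 subunits had positive values, and their median was 0.45, or 0.21 once db/m replicate 3 was left out and 0.15 with replicates 1 and 3 left out, where 8 were positive. Ndufv1, the core subunit that binds NADH and FMN, had 353, 398, 203 and 412 CPM in db/m replicates 1 to 4 and 466, 471, 458 and 457 CPM in db/db replicates 1 to 4. The 4 db/db libraries lay close together and above all db/m libraries, with replicate 3 the lowest and replicate 4 the nearest to db/db. Its log2 fold change was 0.44 (SE 0.21), with an adjusted p of 0.397 by edgeR with Benjamini-Hochberg adjustment, and 0.26 without replicate 3 (unadjusted p 0.0228, adjusted p 0.293 by edgeR). Ndufv2, the core subunit that carries an iron-sulfur cluster beside it, had 149.6, 199, 88.6 and 162 CPM in db/m replicates 1 to 4 and 202, 204, 199 and 183 CPM in db/db replicates 1 to 4. Db/m replicate 2 reached the db/db range and the other 3 db/m libraries lay below it. This gave a log2 fold change of 0.40 (SE 0.21), and 0.22 without replicate 3. Ndufs1, the large core subunit that holds several clusters of the module, had 274, 344, 173 and 330.4 CPM in db/m replicates 1 to 4 and 337, 357, 356 and 346 CPM in db/db replicates 1 to 4. The groups overlapped, since db/m replicate 2 lay inside the db/db range and replicate 4 just under it. The log2 fold change came to 0.32 (SE 0.20), and 0.15 without replicate 3.

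Of the accessory N module subunits, Ndufv3, which sits on the flavoprotein part, had 92.03, 107, 31.6 and 97.9 CPM in db/m replicates 1 to 4 and 119.96, 131, 111 and 119 CPM in db/db replicates 1 to 4. All db/db libraries were above all db/m libraries, by a small margin over replicate 2. Its log2 fold change was 0.55 (SE 0.31), with an adjusted p of 0.448 by edgeR with Benjamini-Hochberg adjustment, and 0.29 without replicate 3. Ndufs6, a zinc-binding subunit that joins late in assembly, had the largest value of the module at 0.73 (SE 0.53), from 5.14, 7.904, 0.662 and 5.89 CPM in db/m replicates 1 to 4 and 6.46, 9.01, 10.4 and 6.46 CPM in db/db replicates 1 to 4. Replicate 3 of db/m was the lowest by far, and the other db/m libraries overlapped with db/db. Without that library the value of Ndufs6, a gene whose copy held most of the counts, was 0.36, and it was 0.23 without replicates 1 and 3. Ndufs4, Ndufa2 and Ndufa12 had log2 fold changes of 0.40, 0.54 and 0.46, and of 0.14, 0.21 and 0.15 without replicate 3. None of these passed the adjusted threshold in either fit.

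In the Q module, where ubiquinone is reduced, all 8 subunits had positive values, and their median was 0.43, or 0.19 once db/m replicate 3 was left out and 0.10 with replicates 1 and 3 left out, where 6 were positive. Ndufs7, a core subunit that forms part of the ubiquinone site, had 146, 184, 42.6 and 183 CPM in db/m replicates 1 to 4 and 202, 214, 196 and 187 CPM in db/db replicates 1 to 4. The lowest db/db library was just above the highest db/m library, and db/m replicate 3 was far below the rest. The log2 fold change came to 0.53 (SE 0.36), with an adjusted p of 0.519 by edgeR with Benjamini-Hochberg adjustment, and 0.23 without replicate 3.

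Ndufs8, the core subunit with the clusters that lead to the ubiquinone site, had 85.3, 108, 36.98 and 101 CPM in db/m replicates 1 to 4 and 101, 106, 105 and 102 CPM in db/db replicates 1 to 4. Apart from replicates 1 and 3, db/m and db/db shared one range. Its log2 fold change was 0.32 (SE 0.27), 0.079 without replicate 3 and -0.024 without replicates 1 and 3. Ndufs3, the core subunit on which assembly of the module starts, had 8.97, 11.4, 6.29 and 12.4 CPM in db/m replicates 1 to 4 and 9.64, 11.97, 10.3 and 11.3 CPM in db/db replicates 1 to 4, and the groups overlapped. This gave a log2 fold change of 0.14 (SE 0.22), and -0.015 without replicate 3, on a gene whose copy held most of the counts. The accessory subunits Ndufa6 and Ndufa7 had groups that did not overlap. Ndufa6 had 77.6, 97.9, 36.6 and 91.2 CPM in db/m replicates 1 to 4 and 102, 115, 97.97 and 102 CPM in db/db replicates 1 to 4. Ndufa7, a gene with abundant copies, had 9.23, 10.02, 2.399 and 9.55 CPM in db/m replicates 1 to 4 and 12.9, 13.5, 11.7 and 10.4 CPM in db/db replicates 1 to 4. For both, the margin between the highest db/m and the lowest db/db library was small. Their log2 fold changes were 0.46 (SE 0.26) and 0.64 (SE 0.37), and 0.23 and 0.34 without replicate 3. Ndufa5 and Ndufa9 had log2 fold changes of 0.48 and 0.41, and of 0.18 and 0.20 without replicate 3.

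In the membrane arm all 20 nuclear subunits among the members, each an accessory subunit, had positive values. Their median was 0.42, or 0.16 once db/m replicate 3 was left out. It was 0.078 with replicates 1 and 3 left out, where 17 were positive. Ndufa10, a large accessory subunit related to nucleoside kinases, had 235, 299, 109.9 and 287 CPM in db/m replicates 1 to 4 and 304, 299.6, 321 and 325 CPM in db/db replicates 1 to 4. All db/db libraries were above all db/m libraries, though db/m replicate 2 reached almost the same level. The log2 fold change came to 0.43 (SE 0.26), with an adjusted p of 0.481 by edgeR with Benjamini-Hochberg adjustment, and 0.20 without replicate 3. Ndufa3, a small subunit of the membrane arm, had 42.8, 46.98, 4.22 and 45.4 CPM in db/m replicates 1 to 4 and 58.96, 69.9, 50.4 and 57.3 CPM in db/db replicates 1 to 4. The db/m libraries 1, 2 and 4 lay close together and below db/db, and replicate 3 was far below them. Its log2 fold change was 0.76 (SE 0.53), with an adjusted p of 0.524 by edgeR with Benjamini-Hochberg adjustment. Without replicate 3 the value was 0.40 (unadjusted p 0.00536, adjusted p 0.166 by edgeR). Its copies held 3446 counts against 7740 for the gene, and with them added the value without replicate 3 was 0.39.

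Ndufc1, a small membrane subunit, had the largest positive log2 fold change of all members in the gene counts alone, at 0.80 (SE 0.51), and 0.44 without replicate 3, from 7.08, 9.57, 0.993 and 9.93 CPM in db/m replicates 1 to 4 and 11.1, 13.6, 13.4 and 9.71 CPM in db/db replicates 1 to 4. Its groups overlapped at the edge, and replicate 3 of db/m was the lowest by far. Its copy held 17648 counts against 1556 for the gene, and with the copies added the value was 0.58, below the 0.76 of Ndufa3. Ndufb3, a small membrane subunit whose copies held more counts than the gene, had 17.2, 17.8, 5.75 and 11.7 CPM in db/m replicates 1 to 4 and 16.4, 23.4, 22.2 and 18.2 CPM in db/db replicates 1 to 4, a log2 fold change of 0.62 (SE 0.31), and 0.37 without replicate 3. Its groups overlapped, since db/m replicates 1 and 2 lay above the lowest db/db library. The log2 fold change of Ndufa1, another small membrane subunit but with few counts on its copies, was 0.67 (SE 0.47), and 0.33 without replicate 3. Ndufb11, whose copies hold many counts, had 43.7, 62.99, 16.8 and 44.5 CPM in db/m replicates 1 to 4 and 43.6, 63.9, 56.2 and 50.5 CPM in db/db replicates 1 to 4 and a log2 fold change of 0.35 (SE 0.32). The groups overlapped over nearly their whole range apart from db/m replicate 3, and the value was 0.093 without that library and -0.010 without replicates 1 and 3. The smallest values were those of Ndufb2 and Ndufab1. Ndufb2 had 3.12, 2.85, 3.47 and 2.37 CPM in db/m replicates 1 to 4 and 2.58, 3.28, 3.55 and 2.77 CPM in db/db replicates 1 to 4 and a log2 fold change of 0.045 (SE 0.23). The value was 0.14 without replicate 3, in which its level by the gene's own counts was not lower, while that of the other 35 subunits was. Its exons in the annotation also share 220 bases with Braf on the other strand, a gene with 5859 counts against 510 for Ndufb2. Ndufab1, the mitochondrial acyl carrier protein, had 33.7, 42.5, 31.3 and 43.1 CPM in db/m replicates 1 to 4 and 39.7, 46.4, 37.7 and 39.2 CPM in db/db replicates 1 to 4 and a log2 fold change of 0.12 (SE 0.14). That value was 0.041 without replicate 3 and -0.076 without replicates 1 and 3. Both genes have abundant copies. In all, 19 members share exon bases with another gene, and whether the counting used strand is not given in the sources used here.

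Ndufaf4 was the only Nduf gene with a negative log2 fold change over all 8 libraries. Together with Ndufaf3 it is known to act early in assembly, on the Q module and its join to the membrane arm. Its level was 93.5, 107, 69.98 and 91.1 CPM in db/m replicates 1 to 4 and 65.4, 65.2, 61.5 and 56.9 CPM in db/db replicates 1 to 4. All 4 db/db libraries were below all 4 db/m libraries, and db/m replicate 3 was the nearest to them. Db/m libraries averaged 90.4 ± 15.4 CPM, and db/db libraries 62.3 ± 3.997 CPM (SD, n = 4). The log2 fold change was -0.54 (SE 0.14), a fold of 0.689, with an unadjusted p of 0.00354, rank 254 of 17411, and an adjusted p of 0.238 by edgeR with Benjamini-Hochberg adjustment, so it did not pass with all libraries. Without db/m replicate 3 it passed at -0.64 with an adjusted p of 0.0228 by edgeR, where 0.238% of all genes were called lower. Without db/m replicates 1 and 3 it passed at -0.68 with an adjusted p of 0.0348 by edgeR, against 0.106% of all genes. It also passed by DESeq2 on all libraries at -0.53 with an adjusted p of 0.045, against 1.10%, and by limma-voom with sample weights at -0.62 with an adjusted p of 0.0195, against 0.333%. The value lay between -0.68 and -0.44 over 21 alternatives and passed in 5, and no other member passed in any. Where Ndufaf4 did not pass, the adjusted p reached 0.508 by edgeR with Benjamini-Hochberg adjustment. The passing fits other than DESeq2 and limma-voom left out db/m replicate 3, the db/m library nearest to db/db for this gene. Leaving that library out widened the gap. All 5 fits share libraries and are not separate support. The copies of Ndufaf4 held 530 counts against 12925 for the gene.

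Set against the subunits of the same library, Ndufaf4 was lower in all db/db libraries. The subunits averaged higher in db/db, so this ratio is a description and no separate support for a lower Ndufaf4. Ndufaf4 had 29.8, 27.9, 51.01 and 25.5 in db/m replicates 1 to 4 and 16.8, 15.5, 15.6 and 14.7 in db/db replicates 1 to 4, as counts per 1000 counts on the 36 subunits. The db/db libraries lay within a narrow range, the db/m libraries 1, 2 and 4 lay well above it, and db/m replicate 3 was the highest, where the subunit level was lowest. Against Ndufv1 alone it had 26.5, 26.9, 34.4 and 22.1 in db/m replicates 1 to 4 and 14.1, 13.8, 13.5 and 12.5 in db/db replicates 1 to 4, as counts per 100 counts on Ndufv1. The groups did not overlap here, with or without replicate 3. That follows from the levels, since every db/db library was lower for Ndufaf4 and higher for Ndufv1, and it adds no support.

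**Figure D4:**
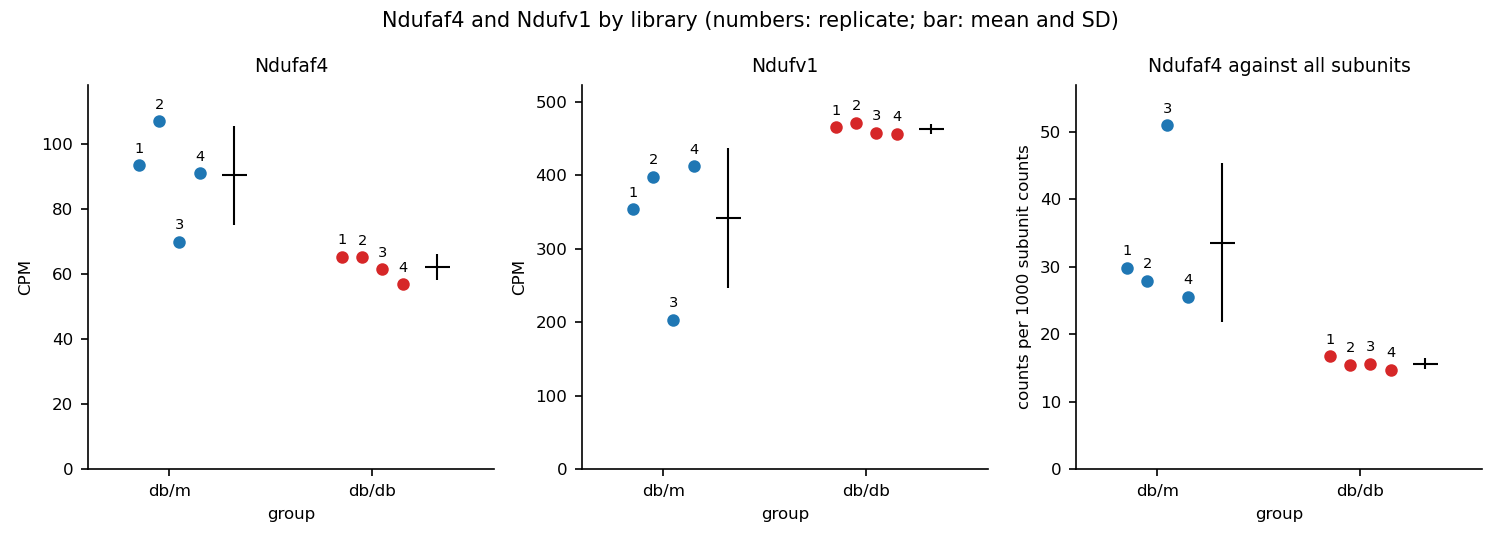
Level of Ndufaf4 (left) and of Ndufv1 (middle) in CPM, and Ndufaf4 counts per 1000 subunit counts (right), by group, with numbers for the replicates and a black bar for the mean and SD over 4 libraries. All db/db points of Ndufaf4 lie at or under 65.4 CPM and all db/m points at or over 69.98 CPM, and Ndufv1 shows the opposite order.

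The other 7 assembly factors had positive log2 fold changes over all libraries, and none passed the test. Ndufaf3, its partner, had 12.7, 15.02, 5.62 and 14.9 CPM in db/m replicates 1 to 4 and 13.2, 17.1, 11.5 and 14.7 CPM in db/db replicates 1 to 4, with overlapping groups and a log2 fold change of 0.23 (SE 0.28), and -0.0031 without replicate 3. Ndufaf1, a part of the complex that assembles the inner membrane arm, had 44.9, 51.2, 27.7 and 45.5 CPM in db/m replicates 1 to 4 and 43.8, 51.2, 50.8 and 49.9 CPM in db/db replicates 1 to 4 and a log2 fold change of 0.21 (SE 0.18). Its db/m libraries 1, 2 and 4 lay within the db/db range or at its edge, and the value was 0.058 without replicate 3. Ndufaf2, a relative of the subunit Ndufa12 that holds its place until the N module joins, had 10.4, 11.9, 3.02 and 8.83 CPM in db/m replicates 1 to 4 and 13.1, 10.8, 12.4 and 8.75 CPM in db/db replicates 1 to 4 and a log2 fold change of 0.40 (SE 0.35). Ndufaf5, which modifies Ndufs7, had 7.43, 7.22, 2.98 and 6.27 CPM in db/m replicates 1 to 4 and 6.73, 8.02, 5.99 and 6.72 CPM in db/db replicates 1 to 4 and a log2 fold change of 0.20 (SE 0.28). For both, the groups overlapped and replicate 3 of db/m was the lowest library, and without it the value was 0.13 for Ndufaf2 and -0.016 for Ndufaf5.

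Ndufaf8, known to act with Ndufaf5, had 10.1, 10.8, 1.41 and 11.7 CPM in db/m replicates 1 to 4 and 11.1, 12.7, 9.397 and 9.07 CPM in db/db replicates 1 to 4 and a log2 fold change of 0.31 (SE 0.48), and -0.036 without replicate 3. Ndufaf7, a protein methyltransferase, had 16.1, 17.2, 10.3 and 17.2 CPM in db/m replicates 1 to 4 and 19.2, 19.4, 20.4 and 16.1 CPM in db/db replicates 1 to 4 and a log2 fold change of 0.30 (SE 0.18), and 0.16 without replicate 3. Of the 7 genes it had the largest value without that library, and its groups overlapped at db/db replicate 4. Ndufaf6, needed for the part of the membrane arm around mt-Nd1, had 4.13, 4.22, 2.15 and 3.85 CPM in db/m replicates 1 to 4 and 3.61, 3.097, 3.55 and 5.28 CPM in db/db replicates 1 to 4 and a log2 fold change of 0.11 (SE 0.28). Its groups overlapped, with db/db replicate 4 the highest, and the value was -0.063 without db/m replicate 3. Without db/m replicate 3 the 7 genes had a median of -0.0031, with 3 positive and 4 negative.

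The 2 Nduf genes outside complex I had values within the range of the subunits. Ndufa4, now counted as a subunit of complex IV, had 11.5, 18.2, 3.598 and 15.4 CPM in db/m replicates 1 to 4 and 15.8, 20.5, 20.3 and 15.8 CPM in db/db replicates 1 to 4 and a log2 fold change of 0.58 (SE 0.39), and 0.28 without replicate 3. Its copies held 117631 counts against 2513 for the gene. Ndufa4l2, its hypoxia-induced relative, had 25.5, 28.8, 9.43 and 37.05 CPM in db/m replicates 1 to 4 and 34.9, 32.7, 31.3 and 40.6 CPM in db/db replicates 1 to 4 and a log2 fold change of 0.47 (SE 0.33), and 0.20 without replicate 3. For both, the groups overlapped and db/m replicate 3 was the lowest library.

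Other genes of the pathway, from lists set by name, had medians on the same log2 scale. The 4 subunits of complex II, which feeds ubiquinone from succinate, lay at a median of 0.48 (0.23 when db/m replicate 3 was left out), and its 4 assembly factors at 0.28 (0.064 when db/m replicate 3 was left out). Subunits of complexes III to V, 41 of 44 listed genes tested, had a median of 0.48 (0.21 when db/m replicate 3 was left out), with 0 past the adjusted threshold in each direction. Mitochondrial ribosomal proteins, 76 of 78 tested, had a median of 0.26 (0.044 when db/m replicate 3 was left out). Assembly factors of complex I without the Nduf name, such as Acad9 and Ecsit, had a median of 0.11 (-0.017 when db/m replicate 3 was left out) over 10 genes. For complexes I and II alike, the subunit list had a higher median than the assembly list, a difference that was not tested. The 8 transcriptional regulators of mitochondrial genes, among them Ppargc1a, Esrra, Nrf1, Gabpa and Yy1, had a median of -0.034 (-0.030 when db/m replicate 3 was left out). Acad9 had 15.5, 18.8, 18.98 and 18.002 CPM in db/m replicates 1 to 4 and 19.9, 17.6, 20.1 and 18.7 CPM in db/db replicates 1 to 4, and unlike most members it was not low in db/m replicate 3.

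Members differed in how low they were in db/m replicate 3. Its level ran from 9.36% of the mean of the other db/m libraries for Ndufa3 to 125% for Ndufb2. The median was 32.6% for subunits and 47.8% for assembly factors, and Ndufaf4 was at 71.96%. Replicate 3 was the lowest of all 8 libraries for 44 of 46 members, the exceptions being Ndufaf4 and Ndufb2. For Ndufb2 this holds for the gene's own counts only. With its copy added it had 27.7 CPM in db/m replicate 3 and 138 to 179 CPM in the other libraries. Shorter genes were lower: over the 46 members the log2 ratio of replicate 3 to the other db/m libraries had a Pearson r of 0.62 and a Spearman rho of 0.62 with log2 exon length. Over all tested genes the median of that ratio was -0.63 for exon lengths up to 1 kb, -0.48 for 1 to 2 kb, -0.18 for 2 to 4 kb and 0.26 above 4 kb. The members lay below these in each class, at -2.03, -1.71, -1.16 and -0.87. The same ratio had an r of -0.73 with the log2 fold change, which contains replicate 3. These correlations describe genes that share their libraries and carry no test. After a correction for length within libraries, the subunit median was 0.39 and the assembly factor median 0.13.

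**Figure D5:**
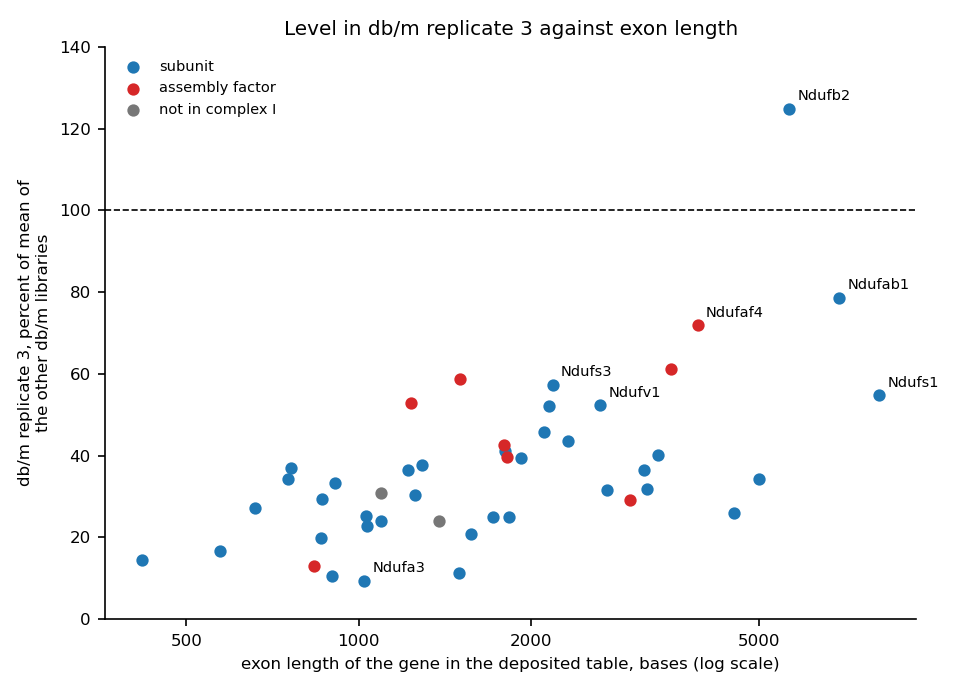
Level of each Nduf gene in db/m replicate 3 as percent of the mean of the other 3 db/m libraries (y axis) against exon length in bases (x axis, log scale), with colours for the class and the dashed line at equal level. Levels are from the gene's own counts, without copies. Only Ndufb2 lies above the line, and short genes such as Ndufa3 lie lowest.

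Adding the counts of the copies to their gene changed single values more than the class. The subunit median became 0.44 with all libraries and 0.19 without db/m replicate 3. All 36 subunits were positive with all libraries, against 47.7% of all genes, and 9 were higher without overlap, against 5.03%. With copies, Ndufs3 had 329, 414, 150.3 and 378 CPM in db/m replicates 1 to 4 and 428, 435, 406 and 423 CPM in db/db replicates 1 to 4. The db/db libraries then lay close together, with db/m replicate 2 among them. Its log2 fold change moved from 0.14 to 0.41, that of Ndufab1 from 0.12 to 0.49 and that of Ndufb2 from 0.045 to 0.44. Ndufa12 moved the other way, from 0.46 to 0.21, as did Ndufs6, from 0.73 to 0.41. Of these 5, Ndufa12 moved away from the class median and the other 4 came closer to it. No member passed the adjusted threshold with copies added and all libraries in the fit.

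Levels between genes can be compared only per length, here as RPKM, CPM divided by exon length in kb, and only for the 30 members whose copies did not hold more counts. Medians over the 8 libraries ran from 224 RPKM for Ndufa8 to 3.02 RPKM for Ndufaf6. Ndufb10, at 223, and Ndufv1, at 165, followed Ndufa8, and the ranges of Ndufa8 and Ndufb10 over libraries overlapped. The assembly factor with the highest level was Ndufaf1 at 31.8 RPKM, rank 19 of 30, then Ndufaf4 at 17.4 RPKM. The lowest subunit by this measure was Ndufb5 at 14.4 RPKM, below both, but this order rests on the length used. Its merged exons span 4995 bases, and its transcript with the longest coding sequence has 1079. For Ndufaf1 these lengths are 1501 and 1451 bases, and for Ndufaf4 3902 and 3632. Whether Ndufb5 is below the assembly factors is therefore not established. Within db/db the spread was small for Ndufv1, with a coefficient of variation of 1.497%, and largest for Ndufs5 at 26.99%, a gene with 501 counts in all. Exon length in the deposited table merges all annotated transcripts, so these levels and the ranks taken from them are approximate.

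The promoters of members were searched for 5 motifs of factors linked to mitochondrial genes, on both strands, in RefSeq windows on GRCm38.p6 of 250 bases before to 50 after the start. Of the 46 members 40 matched a window. The letters GCGCATGCG, the NRF-1 site, were found in 4 of 40 (10%, against 1.81% of 27025 promoters), those of Ndufa11, Ndufa8, Ndufaf4 and Ndufaf5. These letters overlap with themselves on the other strand. The stretch of 120 bases before the start of Ndufaf4 (plus strand, chr4:24897963-24898082) is shown with the site in capitals. This gene was picked because it had the smallest unadjusted p of the members, though it did not pass with all libraries.
Ndufaf4: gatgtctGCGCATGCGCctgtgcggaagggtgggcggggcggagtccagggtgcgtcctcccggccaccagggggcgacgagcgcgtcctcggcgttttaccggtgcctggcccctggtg
The letters AAGATGGC, a YY1 site, were found in 8 of 40 (20%, against 2.88%), all after the start. They contain ATG, the letters of a start codon. The windows of the 2 members with groups that did not overlap, Ndufa3 and Ndufs7, and of the assembly factor with the site are shown with the site in capitals.
Ndufa3: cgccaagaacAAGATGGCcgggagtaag
Ndufs7: ggccgaggccAAGATGGCggcgctggcg
Ndufaf8: ggcagggcccAAGATGGCggcgccctcg
The CRE letters TGACGTCA were found in 3 (7.5%, against 1.88%), the ETS letters CCGGAAGT in 1 (2.5%, against 4%), and the ERR letters TCAAGGTCA in 0 (against 0.407%). A match is a run of letters only, and nothing here measured binding.

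The 7 complex I subunits encoded in mitochondrial DNA had 0 counts in every library. Pseudogenes of at least 95% identity to mt-Nd4, mt-Nd4l and mt-Nd3 held 2399994, 545260 and 250928 counts, and those of mt-Nd2 and mt-Nd5 held 2242 and 664. No copy was matched for mt-Nd1 or mt-Nd6. The mitochondrial and nuclear subunits of complex I are therefore not compared here.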

How the data were processed

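Counts per gene were deposited by the authors as whole numbers without normalization, per the file headers and the values. The genome build was mm10, per the submitters' processing notes. No aligner, counter, annotation release or use of strand is given in the sources used here. The libraries were made with a NEBNext Ultra kit, per the labels' protocols. Exon length in bases, another value per gene in the deposited table, gave the RPKM. Groups follow the genotype in the labels. Symbols and types came from GENCODE M21, where 55480 of 55573 identifiers were found. The members and lists were chosen with earlier results of these data known.

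edgeR 4.0.16 in R 4.3.3 kept 17411 genes (minimum count 10, minimum total count 15) and scaled libraries by TMM. The quasi-likelihood test, two-sided, had genotype as its factor and Benjamini-Hochberg adjustment over all genes, with a threshold of 0.05. Log2 CPM used a prior count of 2. The fit was tested on simulated data. Alternatives were DESeq2 1.42.0, limma 3.58.1 voom with sample weights, other scalings, filters, a replicate block, a length correction, left-out libraries and added pseudogene counts. Pseudogenes were matched to coding sequences with BLAST 2.17.0 at 95% identity over 0.5 of the pseudogene, and at 80%, which was chosen after seeing the data. Every Nduf gene could be named; values in every library were due for the 7 nuclear core subunits, all assembly factors, the 3 largest and 3 smallest fold changes above 1 CPM, the 5 smallest p and up to 5 genes with abundant copies. One core subunit is not reported here by itself. Values of other members were added after their values were seen. Coa1 found no match. Counting error is small beside the spread between libraries, and no 2 libraries matched within sampling noise.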

Additional observations from a re-analysis of the deposited data

Results flagged for a closer look

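In 22 groups of 4 libraries db/m replicate 3 was the lowest library and lay far from the rest: Dixon's ratio, the gap to the nearest library over the whole range on the log2 CPM scale, passed its critical value for 4 libraries. The ratios were 0.925 for Ndufa1, 0.857 for Ndufa12, 0.843 for Ndufa13, 0.9301 for Ndufa2, 0.961 for Ndufa3, 0.863 for Ndufa5, 0.942 for Ndufa7, 0.835 for Ndufa8, 0.861 for Ndufaf6, 0.871 for Ndufaf7, 0.929 for Ndufaf8, 0.862 for Ndufb10, 0.8797 for Ndufb6, 0.877 for Ndufb7, 0.872 for Ndufb8, 0.833 for Ndufb9, 0.849 for Ndufc1, 0.868 for Ndufc2, 0.83996 for Ndufs7, 0.875 for Ndufv3, 0.853 for the mean of the subunits, 0.901 for the mean of the assembly factors. Among 98 groups looked at, chance would mark about 1 in 20 if the groups were independent. They share libraries and all 22 flags rest on db/m replicate 3, so their number is not read against that rate. The genes include members of all 3 modules and 3 assembly factors, and exclude Ndufaf4.

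In db/db the lowest library stood apart for 2 genes. For Ndufaf1 it was replicate 1, with a ratio of 0.834, and for Ndufs4 replicate 4, with a ratio of 0.926. Ndufaf1 was at 43.8 CPM there and Ndufs4 at 62.3 CPM.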

How the results depend on the processing

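The number of members past the adjusted threshold was 0 and became 1 with DESeq2, 1 with limma-voom, 1 without db/m replicates 1 and 3, 1 with copies added and db/m replicate 3 left out, and 0 to 1 when single libraries were left out, the 1 being without db/m replicate 3. In each case the member was Ndufaf4. The number with an unadjusted p under 0.05, 1 with all libraries, was 2 with no filter, 2 with DESeq2, 4 with limma-voom, 3 without db/m replicates 1 and 3, 3 with the length trend removed, 8 with copies added and db/m replicate 3 left out, and 1 to 7 with single libraries left out. The number of members whose groups did not overlap, 8, was 5 on library totals and 6 to 22 with single libraries left out, the highest without db/m replicate 2 and the next, 14, without db/db replicate 4. Fewer libraries in a group make non-overlap easier for any gene. The share of all genes higher without overlap was 5.04% in the main fit and 6.73% without db/m replicate 3. Shares over all genes are not given for most of these settings. The counts of non-overlap and of unadjusted p are therefore not read as results about the members. The subunit median ran from 0.18 to 0.60 with single libraries left out, was 0.20 with limma-voom and stayed positive in all 21 alternatives. The assembly factor median ran from -0.0094 to 0.34 with single libraries left out, -0.026 without db/m replicates 1 and 3 and -0.0090 with copies added and db/m replicate 3 left out. The difference of the medians, 0.21, stayed positive, from 0.12 to 0.26. On library totals the median of all genes shifted to -0.13, and the subunit median was 0.34.

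Single members that changed sign went no lower than -0.15, the value of Ndufs3 without db/m replicates 1 and 3. With all libraries Ndufs3 was at 0.14, and Ndufaf8, at -0.10 in that same alternative, was at 0.31. With limma-voom the log2 fold changes were -0.0013 for Ndufab1, -0.023 for Ndufaf3, -0.037 for Ndufaf6, -0.0042 for Ndufaf8, -0.052 for Ndufs3, -0.014 for Ndufs5. Without db/m replicates 1 and 3 they were -0.076 for Ndufab1, -0.091 for Ndufaf3, -0.064 for Ndufaf6, -0.10 for Ndufaf8, -0.010 for Ndufb11, -0.011 for Ndufb6, -0.15 for Ndufs3, -0.024 for Ndufs8. With copies added and db/m replicate 3 left out they were -0.052 for Ndufa12, -0.0025 for Ndufaf3, -0.016 for Ndufaf5, -0.063 for Ndufaf6, -0.036 for Ndufaf8. On library totals the value was -0.072 for Ndufb2. With single libraries left out the ranges were -0.0031 to 0.36 for Ndufaf3, -0.016 to 0.33 for Ndufaf5, -0.068 to 0.21 for Ndufaf6, -0.036 to 0.52 for Ndufaf8, -0.034 to 0.14 for Ndufb2, -0.015 to 0.29 for Ndufs3, -0.0059 to 0.56 for Ndufs5. All other values kept their sign and, apart from Ndufaf4, their side of the threshold.

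Replicate numbers did not pair the libraries: deviations of same-numbered libraries correlated at -0.088, 0.056, 0.027 and 0.016. With the replicate number as a block, 0 members passed the adjusted threshold, the subunit median was 0.53 and Ndufaf4 was at -0.52. In that fit 4 members had an unadjusted p under 0.05, and the share over all genes is not given here. Filters and tools other than scaling do not bear on group overlap and gave no value for it. Depth limits the 2 lowest genes, Ndufs5 and Ndufb2, with 501 and 510 counts in all.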

Other observations

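Regulators of mitochondrial genes can be read beside the Nduf values. Ppargc1a, the coactivator of mitochondrial genes, had 117, 153, 148 and 140.2 CPM in db/m replicates 1 to 4 and 137, 109, 135 and 116 CPM in db/db replicates 1 to 4 and a log2 fold change of -0.17 (SE 0.13). Esrrg, a nuclear receptor active in heart, had 59.1, 85.7, 99.97 and 76.7 CPM in db/m replicates 1 to 4 and 103, 77.4, 91.98 and 91.6 CPM in db/db replicates 1 to 4 and 0.18 (SE 0.17). For both, the groups overlapped and neither passed, with an adjusted p of 0.576 and 0.626 by edgeR with Benjamini-Hochberg adjustment. Tmem186, an assembly factor that acts with Ndufaf1, had 36.1, 43.6, 31.7 and 41.9 CPM in db/m replicates 1 to 4 and 34.2, 32.1, 42.4 and 38.05 CPM in db/db replicates 1 to 4 and -0.064 (SE 0.14). It was the only one of the 10 assembly factors without the Nduf name with a negative value over all libraries.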
